A study of Homo sapiens with 16 samples.

Results

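Active Raf under hypoxia was compared with inactive Raf under hypoxia by the peak lists of 8 ATAC-seq libraries, 4 of each state, out of 16 libraries in the series. The 8 were chosen by their titles. The cells were IMR90, a line of fibroblasts from human lung, infected with a retrovirus that encodes ΔB-RAF:ER, a B-Raf kinase fused to the hormone-binding part of the estrogen receptor, which 4-hydroxytamoxifen switches on. The 4 Raf-activated and the 4 Raf-inactivated libraries were all labelled hypoxia, which the protocol gives as 0.5% oxygen, and the other 8 libraries held the same Raf states in normoxia. The labels do not say what the Raf-inactivated cells received in place of 4-hydroxytamoxifen, how long Raf or hypoxia lasted, or whether replicates came from separate cultures. The p-values therefore speak only for the spread among these libraries, part or all of which may be technical. Each result rests on 1 line and 1 construct, with no control for 4-hydroxytamoxifen itself.

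Raf kinases pass the signal of Ras to MEK and ERK, and ERK then drives transcription factors of the AP-1 and ETS families and, as feedback, the phosphatases and Sprouty proteins that dampen it. When Raf is held active in fibroblasts, the cells leave the cell cycle in oncogene-induced senescence, a state known for secreted cytokines and proteases, loss of lamin B1 and rearranged heterochromatin. At low oxygen the factor HIF turns on genes of glycolysis and vessel growth, while histone demethylases of the Jumonji class need oxygen to work. ATAC-seq marks DNA that the Tn5 transposase can reach, and a peak is a stretch where its cuts pile up above the local background, so the measure is open chromatin and not transcription.

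Raf-active hypoxia libraries listed more peaks. The Raf-inactive libraries held 174991, 173672, 169287 and 172800 distinct peaks, and the Raf-active ones 201326, 197591, 206757 and 200481. With only peaks of 5-fold enrichment or more kept, the difference in mean number, Raf-active minus Raf-inactive, was -277.5 and not called. In the full lists the states did not overlap, but neither did the depth behind the lists: the background pileup recovered from each list was 4.61, 5.02, 4.86 and 4.65 in Raf-inactive and 7.23, 6.53, 8.34 and 7.16 in Raf-active libraries, so Raf state and depth cannot be told apart. With depth matched at summits the difference in peak number was 21605, and 6716 with a -log10 p of at least 5 there. With a -log10 q of at least 5 it was 26025. Each of these was called (exact permutation p = 0.0286), while peak lengths stayed as deposited. Libraries of the same state shared between 0.758 and 0.789 of their covered base pairs (Jaccard index), and libraries of different states between 0.449 and 0.462. In such bulk lists, fewer cells with an open site and a less open site in each cell cannot be told apart.

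The difference in peak number in the full lists was not spread evenly over the genome. Peaks inside gene bodies were more numerous with Raf active by 13219 and those over 50 kb from any protein-coding gene by 1584, while those in the 205 bins of 1 Mb without a protein-coding gene fell from 3813 to 2635 on average. As shares, 2.22%, 2.22%, 2.19% and 2.20% of peaks lay in these gene-free bins in Raf-inactive libraries and 1.32%, 1.30%, 1.32% and 1.30% in Raf-active ones. That difference was -0.900 percentage points, and the share over 50 kb from any gene differed by -1.94, from 19.1% ± 0.0677 to 17.1% ± 0.0351 (SD, n = 4). The share inside gene bodies was also lower with Raf active, at 54.1% ± 0.0328 against 55.5% ± 0.133. The share within 1 kb of a gene start was 9.28% ± 0.193 against 10.1% ± 0.181. For each of these 4 shares the states did not overlap, and the exact two-sided permutation test reached 0.0286, the smallest p that 4 against 4 libraries allow (0.0333 adjusted over 7 library values). With peaks under 5-fold enrichment left out, the gene start difference was 0.190, and at equal list length it was -0.0173, called in neither case, whereas the gene-free share stayed lower in each Raf-active library than in any Raf-inactive one under each other choice of peaks tried. Median peak length was 376, 387, 378 and 373 bp against 384, 385, 392 and 391 bp, and these ranges overlapped (exact permutation p = 0.0857).

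**Figure D1:**
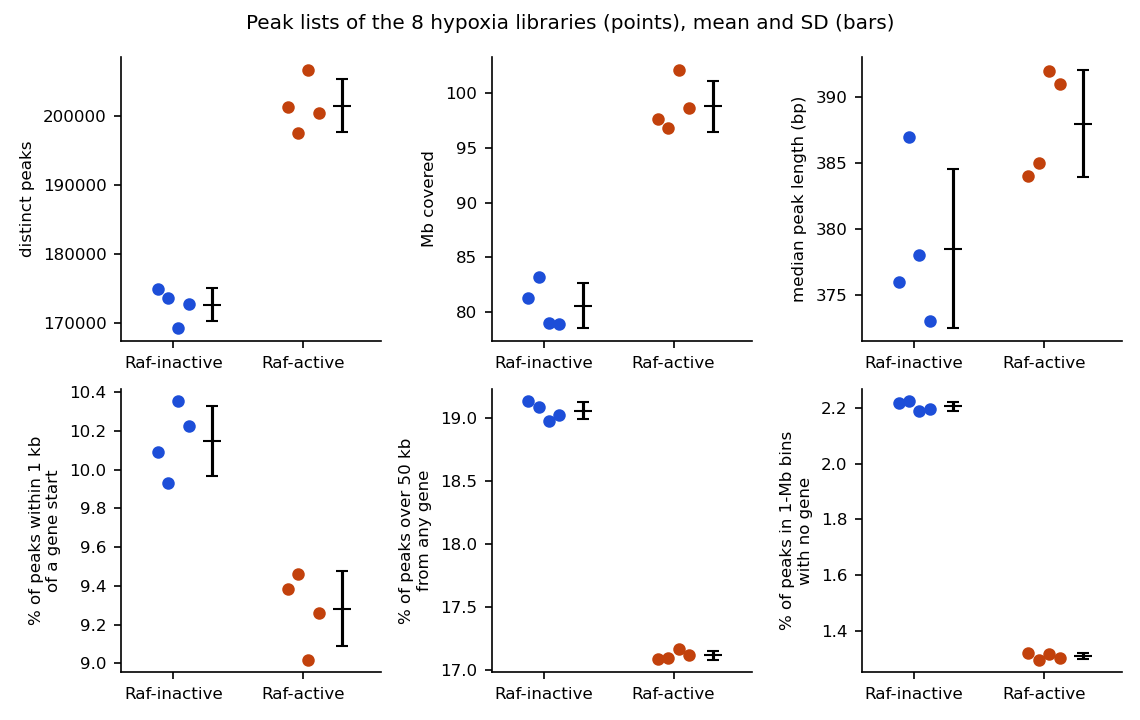
Peak number, genome covered, median peak length and 3 shares of peaks in each hypoxia library, by Raf state (points; bars are the mean and SD of 4 libraries; the vertical axes do not start at 0). Every panel but peak length separates the states, and the share of peaks in 1-Mb bins with no gene sits near 2.2% in Raf-inactive and near 1.3% in Raf-active libraries.

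For genes, peaks were counted in each gene body plus 10 kb on either side, scaled so that all libraries had the same total, and tested as log2 of the scaled number plus 1. In hypoxia 5127 of 15219 loci rose with Raf active, 33.7% of those tested, and 4044 fell, 26.6% (limma with Benjamini-Hochberg adjustment, adjusted p below 0.05). At 8595 loci, 56.5%, the 4 and 4 libraries did not overlap. Changes of at least 2-fold on this scale were fewer, with 731 rises and 694 falls, and the median over all loci was 0.05. Without scaling the median was 0.29 and 78.6% of the called loci rose, and with it 55.9%, so directions are relative to the total of each library.

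The locus with the largest rise was TRIM63, which encodes a ubiquitin ligase that marks muscle proteins for breakdown. It held no peak in any Raf-inactive library and 6.52, 6.64, 7.28 and 7.50 scaled peaks in the Raf-active ones. The log2 change was 2.996 ± 0.08 (SE, limma adjusted p 1.86e-13), a value that the added 1 peak keeps low and that is no bound on the fold. Of the 9 merged peak regions in and around the gene, 6 were present in 4 of 4 Raf-active and 0 of 4 Raf-inactive hypoxia libraries, and none showed the reverse. RYR1, the calcium release channel of skeletal muscle, went from 4.44, 3.35, 4.57 and 2.24 to 26.1, 25.6, 26.4 and 26.3 scaled peaks, a log2 change of 2.57 ± 0.15 (limma adjusted p 7.39e-10). PAX7, a transcription factor of muscle stem cells, went from 9.99, 4.47, 0 and 4.48 to 25.2, 21.8, 23.7 and 28.1 (log2 change 2.59 ± 0.49, limma adjusted p 0.000238). These 3 loci lie on chromosomes 1 and 19, and at each of them the lowest Raf-active library was above the highest Raf-inactive one.

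Other loci with rises of like size had varied roles. GRIK3, a subunit of kainate-type glutamate receptors, held 4.44, 4.47, 6.85 and 3.36 scaled peaks without active Raf and 34.5, 25.6, 41.9 and 36.6 with it, a log2 change of 2.64 ± 0.22 (limma adjusted p 3.76e-08). EPHA8, an ephrin receptor, had 1 peak in each Raf-inactive library and between 9.32 and 12.2 scaled peaks with Raf active (2.49 ± 0.29). RASAL1, which encodes an inhibitor of Ras itself, held 3.33, 1.12, 2.28 and 1.12 scaled peaks and then 13.97, 15.2, 15.5 and 13.1 (2.45 ± 0.19, limma adjusted p 2.02e-08). The gastric mucin gene MUC6 rose by 2.84, IDI2 of the isoprenoid pathway by 2.82, DRC11L by 2.64, LBP, which binds bacterial lipopolysaccharide, by 2.49 and the endopeptidase gene ECEL1 by 2.42. AQP12B at 2.82, SULT1A2 at 2.71 and ZDHHC11 at 2.66 also rose, but each has a close copy nearby, and how reads that fit both copies were counted is not given in the sources used here.

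The largest fall came at CNTN1, a contactin that binds neurons to each other. It held 8.88, 10.1, 7.99 and 7.84 scaled peaks without active Raf and none in any Raf-active library, and fell by 3.27 ± 0.15 (log2, SE, limma adjusted p 4.45e-11). HMGCLL1, which encodes a lyase of ketone body synthesis, went from 16.6, 19.0, 15.99 and 16.8 to a single peak in each Raf-active library, where 11 of 18 regions were lost (-3.23 ± 0.11, limma adjusted p 1.44e-12). SPARCL1, a matrix protein related to SPARC, went from 7.77, 5.59, 5.71 and 4.48 to 0 in all 4 (-2.76 ± 0.13), and so did PLSCR5 (-3.0 ± 0.10). The SE of loci at 0 throughout 1 state is small in part because those libraries add no spread.

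Further falls came at NECAB1, a calcium-binding protein of neurons (-2.97), NOL4 (-2.87), the metalloproteinase gene ADAMTS19 (-2.74), KIAA0825 (-2.70), LOC124907920 (-2.66), BLTP1 (-2.62), AGMO, which cleaves ether lipids (-2.59), and EPYC, a small proteoglycan of cartilage (-2.56). KIAA0825 had the most peaks to lose, with 26.6, 29.1, 24.0 and 26.9 scaled peaks against 3.73, 2.85, 3.64 and 2.81. Of its 29 regions 15 were lost, 3 stayed in all 8 libraries and none was gained. In these 26 loci of largest change the states did not overlap, which the choice of loci required.

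**Figure D2:**
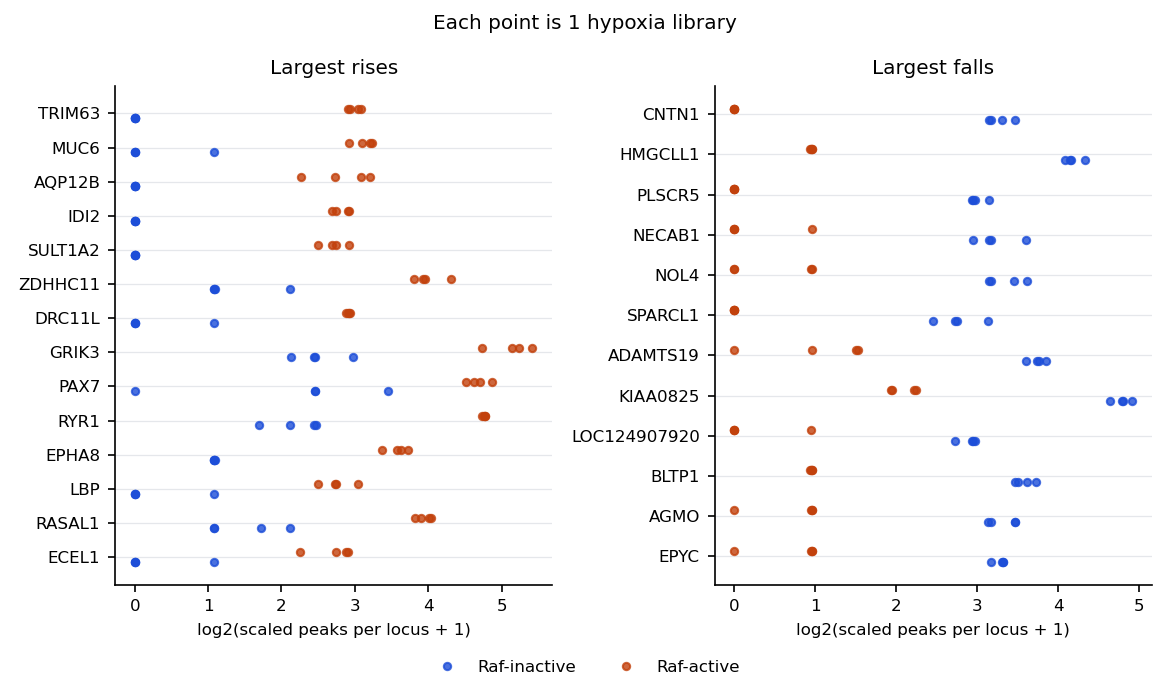
Scaled peaks per locus plus 1 on a log2 axis, in each of the 4 Raf-inactive and 4 Raf-active hypoxia libraries, for 14 of the largest rises (left) and 12 of the largest falls (right), taking 1 locus per Mb. Points at 0 are libraries with no peak at the locus, as for TRIM63 without active Raf and CNTN1 with it.

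Peak number and the length of open chromatin did not always move together. Of the 5127 loci that rose in peak number, 4514 also rose in the base pairs covered, 88.0%, and 35 fell. Of the 4044 that fell in number, 3441 also fell in base pairs, 85.1%, and 76 rose. DUSP6, the phosphatase that removes the activating phosphates of ERK and a standard readout of its activity, was one of these 76. It held 6.66, 6.71, 5.71 and 4.48 scaled peaks without active Raf and 2.79, 1.90, 1.82 and 1.88 with it (log2 change -1.15 ± 0.13, limma adjusted p 1.55e-06). Yet those fewer peaks covered 3.80 ± 0.0865 kb against 2.89 ± 0.208 kb (SD, n = 4), a rise of 0.30 ± 0.04 (limma adjusted p 8.37e-06) on the log2 scale of kb plus 1. Of the 4 merged regions at DUSP6, 2 had a peak in all 8 hypoxia libraries and the other 2 did not, and none met the rule of 4 of 4 against 0 of 4. With loci widened to 50 kb the fall was -0.22 and no longer called.

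**Figure D3:**
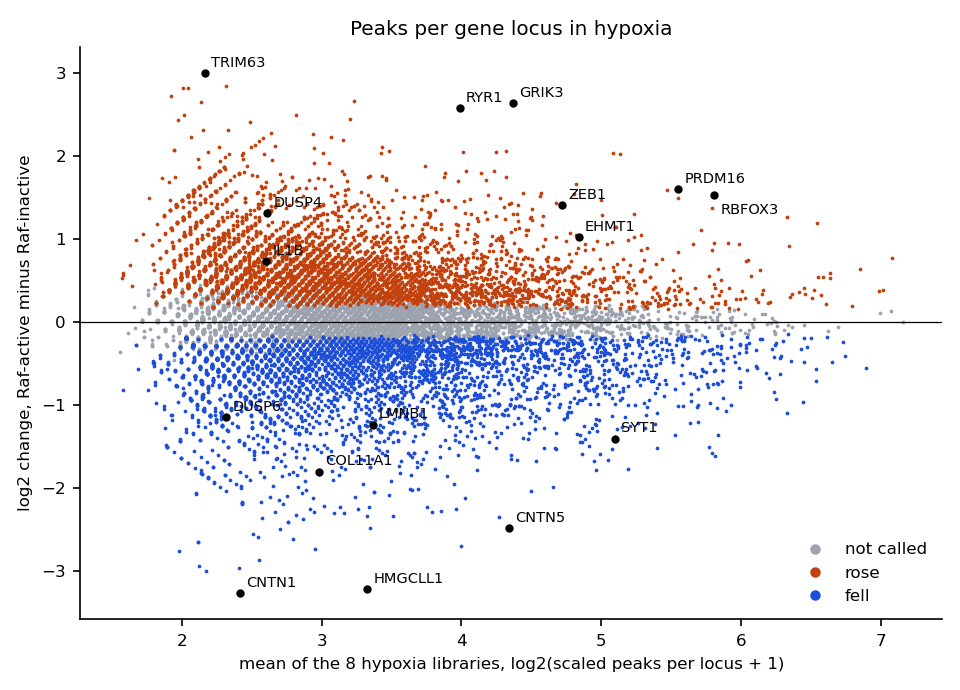
Log2 change in scaled peaks per locus with Raf active in hypoxia (vertical) against the mean level over the 8 libraries (horizontal), 1 point per protein-coding locus, coloured by the limma call. Named loci include TRIM63 at 2.996 and CNTN1 at -3.27, and rises and falls occur over the whole range of levels.

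Genes of the ERK response moved in both directions. Of 44 tested loci 14 rose, 31.8% against 33.7% of all loci, and 7 fell, 15.9% against 26.6%, with a median of 0.08 against 0.05. At 5-fold enrichment 6 rose and 8 fell. Unscaled counts of this and later lists are read against 8201 rises and 2238 falls among 15276 loci, with a median of 0.29. Counts at 5-fold enrichment are read against 3415 rises and 2736 falls among 10867 loci. Those in base pairs are read against 6405 rises and 4646 falls among 15219 loci. Among inhibitors of the pathway, DUSP4, a nuclear phosphatase of ERK, had the clearest rise: 3.33, 2.24, 2.28 and 2.24 scaled peaks became 6.52, 7.59, 8.19 and 8.44 (1.31 ± 0.14, limma adjusted p 4.07e-07). The feedback inhibitor SPRY2 rose by 0.78 (0.11 and not called with 50 kb loci), DUSP2 by 0.30, DUSP7 by 0.24 and SPRED3 by 0.19. SPRY4, with 9.26 ± 1.05 and 10.5 ± 1.47 scaled peaks, did not pass in number (0.16 ± 0.13, limma adjusted p 0.315) but rose in base pairs, from 3.55 ± 0.317 to 5.02 ± 0.204 kb (0.41 ± 0.07, limma adjusted p 2.82e-05). SPRY1 was at -0.13, SPRED1 at -0.14, DUSP1 at -0.15 and DUSP5 at -0.12, none of them called.

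Among ligands of the EGF receptor, TGFA, encoding transforming growth factor alpha, rose from 2.22, 5.59, 3.43 and 3.36 to 10.2, 10.4, 10.9 and 8.44 scaled peaks (1.29 ± 0.16, limma adjusted p 2.40e-06), and 6 of its 13 regions were gained. AREG, amphiregulin, rose by 0.74, whereas HBEGF fell by 0.28 and EREG by 0.24. Among the transcription factors that ERK induces, EGR3 rose by 0.51, EGR1 by 0.53, SRF by 0.42 and ETV4 by 0.31, while MYC at -0.22, ETV1 at -0.18 and ETV5 at -0.05 did not pass. TRIB1 fell by 0.78 and the ephrin receptor genes EPHA4 and EPHA2 by 0.65 and 0.27. The protease receptor gene PLAUR rose by 0.38.

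AP-1 factors are dimers of Jun, Fos and related proteins. Of 16 loci 7 rose, 43.8% against 33.7% of all loci, and 2 fell, 12.5% against 26.6%, with a median of 0.20. In base pairs 7 rose and 3 fell, with a median of 0.049 against 0.058 over all loci. MAFF at 0.59 (0.10 and not called with 50 kb loci), BATF at 0.37 (0.042 and not called at 5-fold enrichment), JUND at 0.36, FOSB at 0.33, MAFK at 0.25, JUN at 0.24 and BACH2 at 0.18 made up the rises. FOSL2, a Fos relative, fell from 7.77, 10.1, 9.14 and 11.2 to 6.52, 5.69, 5.46 and 5.63 scaled peaks (-0.62 ± 0.09, limma adjusted p 2.26e-05), a call that ended over the gene body alone (-0.26). BACH1, a repressor that shares AP-1-like sites, fell by 0.59, but among peaks of at least 5-fold enrichment it was called as a rise (0.41). The states did not overlap at 5 of the 16 loci, against 56.5% of all loci.

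Genes of the senescence-associated secretory phenotype split by member. Of 43 tested loci 12 rose, 27.9% against 33.7% of all loci, and 9 fell, 20.9% against 26.6%, with a median of 0.11. Unscaled 24 rose and 4 fell, and at 5-fold enrichment 6 rose and 8 fell, while the median in base pairs was -0.054. Both interleukin 1 genes rose in number. IL1B held 4.44, 4.47, 2.28 and 3.36 scaled peaks without active Raf and 6.52, 6.64, 6.37 and 6.57 with it (0.73 ± 0.13, limma adjusted p 0.000127), and its open length rose from 1.44 ± 0.168 to 3.78 ± 0.298 kb. IL1A rose by 0.25 ± 0.08 (limma adjusted p 0.0161), a call that ended without Raf-active replicate 3 (0.19) and at equal list length (0.16). At 5-fold enrichment or more IL1A was called as a fall (-0.52). IL6 was at 0.20 ± 0.12 with overlapping states (limma adjusted p 0.140). It passed without Raf-inactive replicate 4 (0.32), unscaled (0.41), at equal list length (0.46) and with a -log10 q of at least 5 (0.30). It also passed at matched depth (0.33), and there with a -log10 p of at least 5 (0.42). In base pairs it was at -0.05 and with 50 kb loci at -0.16, called in neither case.

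Chemokine genes of this list differed among themselves. CXCL8, interleukin 8, held 4.44, 4.47, 4.57 and 4.48 scaled peaks without active Raf and 3.73, 2.85, 2.73 and 2.81 with it (-0.45 ± 0.10, limma adjusted p 0.00116), CXCL3 fell by 0.53, CCL2 by 0.35 and CCL20 by 0.22, while CXCL1 at 0.11, CXCL6 at 0.20 and CCL5 at 0.00 were not called and CCL26 rose by 0.20. BMP2, a bone morphogenetic protein, had the largest rise of the list, from 2.22, 2.24, 1.14 and 2.24 to 4.66, 5.69, 6.37 and 4.69 scaled peaks (1.11 ± 0.15, limma adjusted p 7.55e-06). With loci widened to 50 kb its rise was 0.22 and not called. FGF7, a growth factor for epithelia, fell by 0.62.

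Among matrix-degrading proteases, MMP14, the membrane collagenase activator, fell from 12.2, 13.4, 10.3 and 12.3 to 6.52, 6.64, 5.46 and 6.57 scaled peaks (-0.84 ± 0.10, limma adjusted p 1.72e-06). Its call ended among peaks of at least 5-fold enrichment (-0.31). MMP12 rose by 0.35 and MMP10 by 0.23. MMP1, interstitial collagenase, was just inside the threshold (0.20 ± 0.08, limma adjusted p 0.0452) with overlapping states. It lost the call without Raf-inactive replicate 1 or 2 or Raf-active replicate 1, 2 or 4, in values from 0.16 to 0.19. The call also ended with the replicate number as a block (limma adjusted p 0.0703), and with loci widened to 50 kb MMP1 was at -0.14. Its open length rose from 2.25 ± 0.134 to 3.91 ± 0.202 kb. MMP3 was at -0.21 ± 0.12 and passed without Raf-inactive replicate 1 (-0.36), while unscaled it was at 0.02.

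The balance of arrest genes depended on the scaling. Of 38 tested loci 7 rose, 18.4% against 33.7% of all loci, and 11 fell, 28.9% against 26.6%, with a median of -0.06. Unscaled 18 rose and 9 fell, with a median of 0.17 against 0.29 over all loci. RB1, the retinoblastoma protein that blocks entry into S phase, fell from 14.4, 15.7, 17.1 and 16.8 to 5.59, 6.64, 5.46 and 3.75 scaled peaks (-1.44 ± 0.17, limma adjusted p 1.52e-06). Its relative RBL2 fell by 1.26, and SESN1, a p53-induced stress protein, by 1.40 ± 0.08. Rises came at TP53INP1 (1.06) and SESN2 (0.71), both stress-induced genes, FUCA1 (0.60), a lysosomal enzyme, NOTCH1 (0.57), GATA4 (0.52) and the kinase inhibitor CDKN2B (0.46). CDKN1A, encoding p21, held 5.55, 5.59, 5.71 and 6.72 scaled peaks without active Raf and 5.59, 3.80, 6.37 and 5.63 with it (-0.13 ± 0.14, limma adjusted p 0.411), and changed sign under 6 of the other settings. CDKN2A, encoding p16 and ARF, was at 0.23 ± 0.12 with overlapping states (limma adjusted p 0.0963) and at -0.01 in base pairs. At 5-fold enrichment it was called as a fall (-0.32), and unscaled as a rise (0.47).

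Genes of the nuclear lamina and of senescent chromatin moved in both directions. LMNB1, lamin B1, went from 14.4, 13.4, 13.7 and 12.3 to 4.66, 5.69, 4.55 and 5.63 scaled peaks (-1.24 ± 0.11, limma adjusted p 9.13e-08), with 5 of 14 regions lost and none gained, and its open length fell from 5.40 ± 0.564 to 2.49 ± 0.180 kb. HMGA1, an architectural protein of senescent chromatin, fell by 0.70 ± 0.08 in number, but was not called in base pairs (-0.05, limma adjusted p 0.408) or with loci widened to 50 kb (-0.026). HMGA2 was at -0.06 ± 0.08 and not called. It was called as a fall at 5-fold enrichment (-1.045), at equal list length (-0.23) and with 50 kb loci (-0.34). The same held at matched depth with a -log10 p of at least 5 (-0.22). Unscaled it was called as a rise (0.20), and in base pairs it was at 0.08 and not called. Of 20 lamina and envelope loci 6 rose and 7 fell, 30% and 35% against 33.7% and 26.6% of all loci, with a median of 0.05. LEMD3, an inner membrane protein, fell by 1.02, the linker gene SYNE1 by 0.88, LBR, the lamin B receptor that tethers heterochromatin, by 0.76 and EMD, emerin, by 0.53, while LBR was not called in base pairs (-0.070) and stood at 0.023 with 50 kb loci. The pore genes NUP210, NUP98 and NUP153 rose by 0.65, 0.29 and 0.25. LMNA, lamin A, was at 0.09 and LMNB2 at -0.24, neither called.

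Of 43 cell cycle loci 14 rose, 32.6% against 33.7% of all loci, and 8 fell, 18.6% against 26.6%, with a median of 0.00. BIRC5, survivin, rose from 2.22, 2.24, 1.14 and 1.12 to 5.59, 5.69, 6.37 and 5.63 scaled peaks (1.38 ± 0.12, limma adjusted p 6.64e-08). RRM2, a subunit of ribonucleotide reductase, rose from 11.1, 11.2, 13.7 and 11.2 to 27.9, 28.5, 29.1 and 29.1 (1.22 ± 0.08, limma adjusted p 3.10e-09), with 13 of 34 regions gained. TYMS rose by 0.86, POLE by 0.72, CCNE1 by 0.70, PLK1 by 0.66 and MCM7 by 0.64. RRM1, the partner subunit, fell by 1.04, the checkpoint kinase gene BUB1 by 1.11 and E2F3 by 0.68. With 50 kb loci RRM1 (-0.19) and BUB1 (-0.11) were not called. Of the 39 members with a promoter window in the reference table, 38 had a promoter peak in all 8 hypoxia libraries. Of all promoters 64.6% did.

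Of 46 loci of fibroblast matrix 9 rose, 19.6% against 33.7% of all loci, and 20 fell, 43.5% against 26.6%, with a median of -0.15. Unscaled 19 rose and 12 fell, with a median of 0.10 against 0.29 over all loci. COL11A1, a minor fibrillar collagen, went from 11.1, 10.1, 12.6 and 11.2 to 3.73, 2.85, 1.82 and 1.88 scaled peaks (-1.81 ± 0.16, limma adjusted p 6.00e-08). FBN2, a fibrillin of elastic fibres, went from 24.4, 23.5, 25.1 and 23.5 to 8.38, 11.4, 11.8 and 11.3 (-1.11 ± 0.09, limma adjusted p 2.89e-08). The main collagens of the interstitial matrix fell less, COL1A2 by 0.73, COL3A1 by 0.71 and COL1A1 by 0.45, and COL1A2 lost its call among peaks of at least 5-fold enrichment (-0.23). Rises came at COL5A3 (1.02, but 0.33 and not called at 5-fold enrichment), PLOD1 (0.77), COL5A1 (0.61) and COL7A1 (0.55).

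Of 28 contractile loci 2 rose and 9 fell, 7.14% and 32.1% against 33.7% and 26.6% of all loci, with a median of -0.035. Unscaled 14 rose and 2 fell (median 0.23 against 0.29 over all loci), and at 5-fold enrichment 8 rose and 7 fell. ACTA2, smooth muscle actin, fell from 16.6, 15.7, 17.1 and 15.7 to 9.32, 8.54, 10.9 and 9.38 scaled peaks (-0.72 ± 0.08, limma adjusted p 8.81e-07), and MRTFA, a cofactor of serum response factor, by 0.38 (unscaled -0.12 and not called). CCN2, a target of the YAP pathway, fell by 0.46, but stood at 0.078 at 5-fold enrichment. TAGLN rose by 0.73, a call that ended with loci widened to 50 kb (0.06). Of 36 factors of fibroblast identity 6 rose and 14 fell, 16.7% and 38.9% against the same shares of all loci, with a median of -0.13. Unscaled 13 rose and 6 fell (median 0.11 against 0.29 over all loci). FOXP2, a forkhead factor, fell from 17.8, 19.0, 18.3 and 19.0 to 3.73, 5.69, 4.55 and 6.57 (-1.69 ± 0.20, limma adjusted p 1.48e-06). Falls also came at NFIA at -0.93, NFIB at -0.83, TWIST1 at -0.72 and GLI3 at -0.68. ZEB1, a factor of the mesenchymal state, went the other way, from 13.3, 12.3, 14.8 and 13.4 to 38.2, 35.1, 36.4 and 39.4 (1.40 ± 0.11, limma adjusted p 1.23e-08), though its call ended among peaks of at least 5-fold enrichment (0.38). ZEB2 fell by 0.43.

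The labelled cell type was checked against 15 fibroblast markers. All 15 had peaks, 2 rose and 9 fell with Raf active, 13.3% and 60.0%, and the median was -0.32, or -0.08 unscaled against 0.29 for all loci. Their summed scaled peaks ranged from 179.8 to 188.2 in Raf-inactive and from 150.1 to 155.6 in Raf-active libraries. FAP, fibroblast activation protein, fell by 0.81 ± 0.12 (limma adjusted p 2.64e-05), LUM, the matrix proteoglycan lumican, by 0.72 and VIM by 0.55. Markers of other cell types are set beside the 33.7% of all loci that rose and the 26.6% that fell: 8 of 15 muscle loci rose and 3 fell (median 0.41), 5 and 1 of 12 blood loci (0.21), 5 and 1 of 15 epithelial loci (0.23), 5 and 4 of 16 endothelial loci (0.14), and 5 and 5 of 10 neuronal loci (-0.05). Epithelial loci rose in 33.3% and endothelial loci in 31.3% of cases, near the share of all loci. The summed scaled peaks of muscle markers ranged from 80.7 to 95.0 without and from 120.5 to 126.7 with active Raf, and those of blood markers from 66.6 to 69.7 and from 86.4 to 90.4. For epithelial markers these sums ranged from 89.1 to 94.1 and from 105.3 to 110.1, for neuronal ones from 131.1 to 147.6 and from 149.9 to 154.8, and for endothelial ones from 180.9 to 185.0 and from 179.8 to 186.5. No peak in any of the 8 libraries lay at MS4A1 of the blood markers, DCX and ELAVL4 of the neuronal ones and MYH1 of the muscle ones, while each epithelial and endothelial marker had some. Whether other cells had a part in any result was not tested.

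Within these marker lists single loci moved strongly. RBFOX3, the neuronal nuclear antigen, rose from 30.0, 32.4, 22.8 and 26.9 to 78.3, 82.6, 86.4 and 80.7 scaled peaks (1.53 ± 0.10, limma adjusted p 3.19e-09), with 30 of 126 regions gained, while SYT1, a sensor of synaptic vesicle release, fell from 51.1, 51.4, 49.1 and 43.7 to 17.7, 18.0, 17.3 and 17.8 (-1.41 ± 0.07, limma adjusted p 1.99e-10). LCP2, an adaptor of T cell signalling, rose by 1.25 and ITGAX, an integrin of myeloid cells, by 1.22. EMCN, an endothelial sialomucin, fell by 1.84 and EGFL7, secreted by endothelial cells, rose by 1.10. SFN, an epithelial 14-3-3 protein, rose by 1.02, MUC1 by 0.96 and the keratin gene KRT18 by 0.58, while TP63, a factor of basal epithelium, fell by 0.52. PECAM1, an adhesion protein of endothelium and platelets, rose by 0.65. Of the neuronal loci ELAVL3 rose by 1.16, and GAD1, which makes the transmitter GABA, fell by 1.26. SPI1, the master factor of myeloid cells, rose by 0.95 and the integrin gene ITGAM by 0.82. Of the muscle loci the creatine kinase gene CKM rose by 0.74 and TTN, titin, fell by 0.67. The calls of EGFL7 with 50 kb loci (0.11), of ITGAX (0.33), ITGAM (0.29), SPI1 (0.078) and TTN (-0.094) at 5-fold enrichment, of CKM at equal list length (0.23) and of MUC1 at a matched depth and -log10 p of at least 5 (0.32) did not hold.

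Neural adhesion genes, most of them very long and far from other genes, had the lowest median of the 21 lists. Of 28 tested loci 6 rose and 17 fell, 21.4% and 60.7% against 33.7% and 26.6% of all loci, and the median was -0.46, with -0.19 unscaled and -0.50 in base pairs. CNTN5 fell from 34.4, 32.4, 33.1 and 33.6 to 5.59, 4.75, 5.46 and 4.69 scaled peaks (-2.49 ± 0.09, limma adjusted p 1.80e-12), with 17 of 35 regions lost. The cadherin genes CDH2 and CDH18 fell by 1.45 and 1.43, the neuroligin gene NLGN1 by 1.37 and PCDH9 by 1.22. Within the same families CNTN2 rose by 1.20, NFASC by 1.30, CDH4 by 0.91, NLGN3 by 0.82, L1CAM by 0.77 and NRXN2 by 0.76. A further 22 of the 50 listed genes were under the minimum of 3 peaks and were not tested.

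Targets of HIF could be induced in both states at 0.5% oxygen. Of 53 loci 11 rose, 20.8% against 33.7% of all loci, and 13 fell, 24.5% against 26.6%, with a median of -0.08. Unscaled 21 rose and 4 fell (median 0.15 against 0.29 over all loci). In base pairs 13 rose and 23 fell, against 6405 and 4646 of 15219 over all loci. ANKRD37, a gene with HIF sites at its start, rose by 0.70 ± 0.18, a call that ended at equal list length (0.18) and turned to -0.10 with loci widened to 50 kb. EPAS1, which encodes HIF-2 alpha, rose by 0.59, VEGFA, the vascular growth factor, by 0.40, DDIT4 by 0.39 and PDK1, which keeps pyruvate out of mitochondria, by 0.36. EGLN3, a prolyl hydroxylase acting on HIF, fell by 0.39, the glucose transporter genes SLC2A3 and SLC2A1 by 0.37 and 0.30, and the collagen hydroxylase genes P4HA2 and PLOD2 by 0.54 and 0.50. CA9, a standard marker of hypoxia, was at -0.23 and LDHA at 0.12, neither called.

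Histone lysine demethylases, most of which need oxygen, moved in both directions. Of 20 demethylase loci 9 rose and 4 fell, 45% and 20% against 33.7% and 26.6% of all loci, with a median of 0.25. KDM4C, which removes methyl groups from H3K9, fell from 53.3, 49.2, 51.4 and 51.5 to 26.1, 24.7, 25.5 and 26.3 scaled peaks (-0.98 ± 0.07, limma adjusted p 7.96e-09), with 19 of 65 regions lost and 5 gained. Its relative KDM4B rose by 0.66 and KDM4A by 0.26. KDM6A and KDM6B, which act on H3K27, fell by 0.94 and rose by 0.31. RIOX2 fell by 1.17, which at 5-fold enrichment was -0.23 and not called, KDM5C rose by 0.89, and KDM2B and KDM7A rose by 0.75 each. KDM3A, a HIF target, was at -0.20 and not called.

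Of 34 loci of H3K9 and H3K27 methylation 12 rose and 4 fell, with a median of 0.12. These were 35.3% and 11.8%, against 33.7% and 26.6% of all loci. The list also holds the DNA methyltransferase genes DNMT1 and DNMT3A. PRDM16 rose from 23.3, 22.4, 25.1 and 19.0 to 68.9, 68.3, 69.2 and 71.3 scaled peaks (1.59 ± 0.10, limma adjusted p 1.77e-09), with 27 of 93 regions gained and none lost. EHMT1, a methyltransferase of H3K9, rose from 19.98, 17.9, 17.1 and 16.8 to 36.3, 38.0, 38.2 and 36.6 (1.02 ± 0.07, limma adjusted p 5.39e-09), with 15 of 56 regions gained and none lost. Its partner EHMT2 was at 0.15 and EZH2, the H3K27 methyltransferase, at 0.08, neither called. Other rises were UHRF1 (0.74), DNMT3A (0.52) and CBX3 (0.48), while MTF2, EED and DNMT1 fell by 0.48, 0.47 and 0.40.

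Of 35 chromatin architecture loci 5 rose and 12 fell, 14.3% and 34.3% against 33.7% and 26.6% of all loci, with a median of -0.06. Unscaled 16 rose and 10 fell (median 0.20), against 8201 and 2238 of 15276 over all loci (median 0.29). Among cohesin, its loaders and its regulators, RAD21 fell by 1.14, PDS5B by 1.02, NIPBL by 0.66 and SMC3 by 0.46, while MAU2 rose by 0.63 and SMC1A by 0.54. The condensin subunit gene SMC4 fell by 1.13. SMARCA2, the BRM ATPase of the SWI/SNF complex, fell from 27.7, 28.0, 21.7 and 21.3 to 8.38, 8.54, 8.19 and 10.3 scaled peaks (-1.37 ± 0.10, limma adjusted p 1.06e-08), whereas SMARCA4, the alternative ATPase BRG1, rose by 0.51. SATB1, which binds at the base of chromatin loops, fell by 0.69. CTCF was at -0.08 and not called. Of 16 histone protease loci 5 rose and 4 fell (median 0.10), 31.3% and 25%, near the 33.7% and 26.6% of all loci. CTSL, the cathepsin known to clip histone H3, rose from 2 peaks in each Raf-inactive to 5 in each Raf-active library (scaled means 2.24 and 4.66, 0.80 ± 0.09, limma adjusted p 1.46e-06), and CTSO fell by 1.42. CTSD rose by 0.71, and CTSZ by 0.62, which was 0.21 and not called at equal list length and -0.11 at 5-fold enrichment.

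Promoters were compared by presence of a peak, a stricter rule than the test of loci, so their rates cannot be set against each other. A promoter window ran from 250 bases before to 50 after a gene start in RefSeq and was available for 15812 of 19974 protein-coding genes. Of these, 231 had a peak in 4 of 4 Raf-active and 0 of 4 Raf-inactive libraries, 1.46%, and 91 showed the reverse, 0.576%, while 10221, or 64.6%, had a peak in all 8 and 4203, or 26.6%, in none. Of the 231 gained windows 163 lay in a merged region that was itself gained. Another 44 lay in a region with peaks in all 8 libraries, so there the window changed inside a region open in both states. Whether a peak grew or a separate one arose was not tested. All 8 gained windows of highest rank were of this kind: NDUFAF8, TEX54, TNRC6C, GPANK1, GSTM3, ORMDL3, TMEM229B and SLC51B. Of the 91 lost windows 73 lay in a lost region. The lost windows of highest rank were those of EPM2A, OR2F2, EPHA6, C1orf198, LOC105377864, TPD52L1, B3GALNT1 and KLHL33.

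Among listed genes 10 promoters changed, with at most 1 gained and 1 lost in any list. Over all promoters 1.46% were gained and 0.576% lost, so these few are not read as a result about the lists. Those of TRIM63, the matrix protein gene FMOD, the hexokinase gene HK1, the condensin gene NCAPD3, the adhesion gene L1CAM, the endothelial receptor gene TIE1 and the glutamate transporter gene SLC17A7 were gained, and those of PDGFRA, MEOX2 and the tropomyosin gene TPM4 were lost. PDGFRA, the receptor that marks fibroblasts, was not called over its whole locus (0.11). Where the locus was tested, 119 of 187 loci with a gained promoter rose and 10 fell, and 43 of 68 with a lost promoter fell and 9 rose. Those values come from the same peaks and are no separate evidence.

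The windows of 3 gained and 3 lost promoters, each inside a merged region of the same class, are given to show what kind of DNA opened and closed. They were chosen after their values were seen, and come from RefSeq on GRCh38, read 5′ to 3′ in the direction of the gene. Capitals mark a match to 1 of the 13 motifs searched.
TRIM63, gained, chr1:26067581-26067880, minus strand: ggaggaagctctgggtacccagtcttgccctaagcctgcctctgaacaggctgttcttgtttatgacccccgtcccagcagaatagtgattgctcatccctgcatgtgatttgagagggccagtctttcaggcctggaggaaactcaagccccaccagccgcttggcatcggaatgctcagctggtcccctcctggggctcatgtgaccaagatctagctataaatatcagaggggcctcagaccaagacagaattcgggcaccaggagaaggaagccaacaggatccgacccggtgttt
CPNE6, gained, chr14:24070699-24070998, plus strand: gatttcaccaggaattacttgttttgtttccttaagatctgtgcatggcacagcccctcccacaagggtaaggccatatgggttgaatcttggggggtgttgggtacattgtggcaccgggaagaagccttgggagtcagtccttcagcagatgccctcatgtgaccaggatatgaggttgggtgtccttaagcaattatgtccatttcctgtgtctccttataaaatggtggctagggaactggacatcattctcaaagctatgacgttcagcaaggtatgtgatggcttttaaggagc
NLRX1, gained, chr11:119168084-119168383, plus strand: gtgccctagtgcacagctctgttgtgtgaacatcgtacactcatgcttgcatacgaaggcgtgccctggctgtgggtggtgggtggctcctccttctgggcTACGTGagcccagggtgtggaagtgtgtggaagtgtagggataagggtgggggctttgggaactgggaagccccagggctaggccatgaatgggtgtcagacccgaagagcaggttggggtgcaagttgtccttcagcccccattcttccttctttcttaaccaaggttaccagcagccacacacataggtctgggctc
PDGFRA, lost, chr4:54229043-54229342, plus strand: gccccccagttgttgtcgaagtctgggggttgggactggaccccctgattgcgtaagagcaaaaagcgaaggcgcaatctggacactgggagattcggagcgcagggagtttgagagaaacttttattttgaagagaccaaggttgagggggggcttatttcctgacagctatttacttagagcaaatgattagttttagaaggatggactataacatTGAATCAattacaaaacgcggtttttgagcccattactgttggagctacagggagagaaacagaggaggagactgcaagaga
SEMA3E, lost, chr7:83649090-83649389, minus strand: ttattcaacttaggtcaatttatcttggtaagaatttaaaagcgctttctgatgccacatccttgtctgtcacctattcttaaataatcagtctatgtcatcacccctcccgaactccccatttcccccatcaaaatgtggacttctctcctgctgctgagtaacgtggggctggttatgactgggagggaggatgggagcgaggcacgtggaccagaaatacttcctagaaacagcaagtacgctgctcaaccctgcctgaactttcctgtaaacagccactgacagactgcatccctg
MEOX2, lost, chr7:15686634-15686933, minus strand: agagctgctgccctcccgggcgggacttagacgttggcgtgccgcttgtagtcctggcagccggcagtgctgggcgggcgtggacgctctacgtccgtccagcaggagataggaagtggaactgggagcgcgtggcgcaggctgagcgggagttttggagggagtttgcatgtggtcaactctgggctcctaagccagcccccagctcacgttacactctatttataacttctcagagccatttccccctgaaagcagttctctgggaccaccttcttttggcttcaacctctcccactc
The marked bases are the HIF motif in NLRX1, a mitochondrial member of the NLR family, and TGAATCA in PDGFRA. The latter matches the AP-1 pattern as searched, TGANTCA, in which N is any base. In normoxia the TRIM63, CPNE6 and NLRX1 windows had a peak in 4 of 4 Raf-active and 0 of 4 Raf-inactive libraries. PDGFRA had one in 3 of 4 Raf-active normoxia libraries, while SEMA3E, a guidance cue, and MEOX2, a homeobox factor, had none there.

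Changed promoters differed in base composition from those that stayed open. The median GC content of the windows was 59.0% for gained, 48.7% for lost and 66.3% for promoters with a peak in all 8 libraries, against 51.3% for those never called and 62.7% for all. The median number of CpG sites was 9 in gained and 6 in lost windows, against 27 in those open throughout. Of the gained windows 9.96% and of the lost windows 12.1% held the AP-1 motif TGANTCA, with any base at N. It was in 5.76% of all 15812 promoters and in 7.90% of those never called. The ETS motif CCGGAAGT was in 0.433% of gained and 1.10% of lost windows, which is 1 window each. It was in 6.20% of all promoters but only 0.571% of those never called. The TEAD motif ACATTCC was in 2.16% of gained and 8.79% of lost windows, against 2.53% of all and 3.69% of those never called. The GATA motif AGATAAG was in 2.60% and 6.59%, against 2.12% and 4.47%. The lost shares are 8 windows for TEAD and 6 for GATA, of 91. These are counts of letters on both strands, in small groups, and are no evidence of binding.

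Counted over every promoter with a peak, between 10708 and 10866 in Raf-inactive and between 10998 and 11145 in Raf-active libraries, motif shares hardly moved. The AP-1 motif was in 4.66%, 4.71%, 4.68% and 4.74% of such promoters without active Raf and in 4.88%, 4.85%, 4.89% and 4.89% with it. The ETS motif was in 8.82% ± 0.0613 and 8.60% ± 0.0396 (SD, n = 4), the CRE motif TGACGTCA in 3.42% ± 0.0242 and 3.33% ± 0.0108, and the SP motif GGGGCGGGG in 29.1% ± 0.0114 and 28.9% ± 0.0573. For these 4 motifs the states did not overlap, at an exact permutation p of 0.0286, which was 0.0929 adjusted over 13 motifs, so none passed. The HIF motif TACGTG, in 3.22% of all promoters, was in 3.24% ± 0.0110 and 3.23% ± 0.00650 (exact permutation p = 0.371). The remaining motifs had overlapping states: TEAD, C/EBP TTGCNNCAA, NF-kB, RUNX TGTGGTTT, CTCF, E2F TTTCCCGC, p53 and GATA. They were in 2.53%, 1.66%, 0.342%, 1.21%, 0.0506%, 2.18%, 0.253% and 2.12% of all promoters.

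Changed regions differed from those open throughout in length and in distance from gene starts. Of 299037 merged regions with peaks in at least 2 of the 16 libraries, 41393 were gained in hypoxia, 13.8%, and 26388 lost, 8.82%, while 96857 had a peak in all 8 libraries. Gained regions had a median length of 446 bp and a median distance of 35612 bp to the nearest gene start, and 2.91% lay within 1 kb of one. Lost regions had a median length of 466 bp and lay farther out, at a median of 65498 bp, with 1.37% within 1 kb and 38.6% over 100 kb away. Regions open in all 8 libraries were longer, with a median of 766 bp, and 14.2% lay within 1 kb. Of the lost regions 4.55% lay in gene-free bins, against 1.01% of the gained and 1.82% of all regions. Over all regions the median distance was 38332 bp, 6.46% lay within 1 kb and 25.9% over 100 kb away. A region counts as absent where its peak was not called at that depth.

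**Figure D4:**
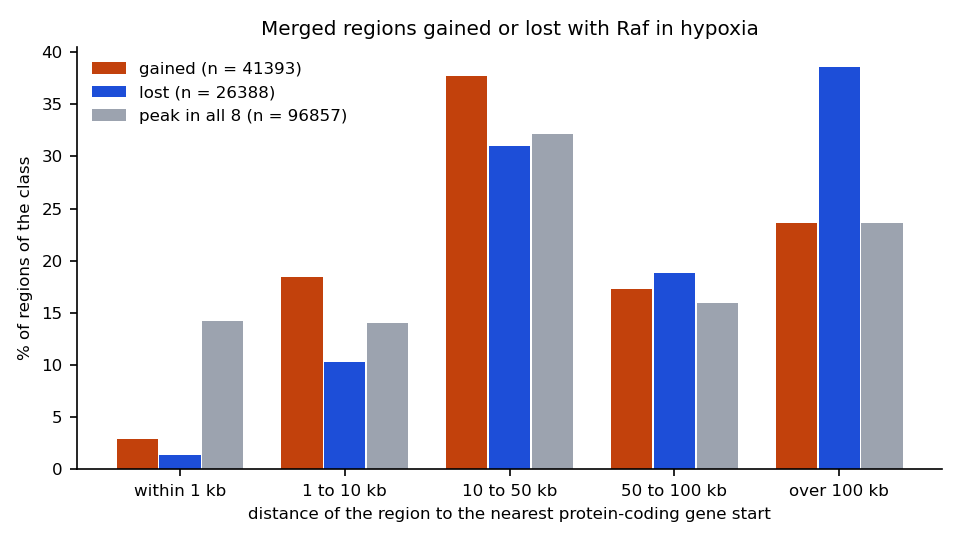
Share of merged regions by distance to the nearest protein-coding gene start, for regions gained, lost or present in all 8 hypoxia libraries. Lost regions are most frequent over 100 kb away, at 38.6%, and regions in all 8 libraries hold 14.2% within 1 kb, against 2.91% and 1.37% of gained and lost ones.

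By the authors' -log10 p, ranked within each list, the fourth gained region lay inside ADAMTS7, a metalloproteinase gene, at chr15:78789955-78790545 (hg38), 20919 bp from its start, at a mean percentile of 98.3. It was also called in 3 of 4 Raf-inactive normoxia libraries. The fifth lay at chr5:178630409-178631296, 3359 bp from CLK4, a kinase of splicing factors, and was absent from Raf-inactive normoxia libraries. The fourth lost region lay at chr4:177118498-177119450, 190424 bp from the DNA glycosylase gene NEIL3, and the fifth inside TBC1D32, a gene of ciliary signalling, at chr6:121309997-121310749. Both lost regions were called in 4 of 4 Raf-inactive and 0 of 4 Raf-active normoxia libraries.

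Along the chromosomes the median change was higher in bins with more genes. Of 2439 bins, each 1 Mb long and holding 10 or more peaks on average, 913 rose, 37.4%, and 1214 fell, 49.8% (limma, adjusted p below 0.05). Among 81 bins without a protein-coding gene 3 rose and 72 fell, with a median log2 change of -0.92. Among 431 bins with 1 to 2 genes 68 rose and 311 fell (-0.53), among 684 with 6 to 10 genes 254 rose and 320 fell (-0.06), and among 212 with over 20 genes 184 rose and 12 fell (0.34). Rises made up 42.9% of the called bins, and 58.2% without scaling. Gene density goes with base composition and other features of DNA, whose part was not tested.

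Whole chromosomes differed too, also at like gene density. Chromosomes 20 and 14 both had a median of 7 genes per bin, and 74.6% of bins rose on chromosome 20 and 33.8% on chromosome 14. Of 33 bins on chromosome 22, 32 rose and none fell, and 50 of 55 on chromosome 19, 56 of 69 on chromosome 16, 58 of 75 on chromosome 17 and 44 of 59 on chromosome 20 rose. On chromosome 4, 126 of 151 bins fell and 14 rose, and on chromosome 6, 103 of 149 fell. Chromosome 19 held 2.30% ± 0.00490 of all peaks without and 3.13% ± 0.0125 with active Raf, and chromosome 4 held 5.61% ± 0.0160 and 4.33% ± 0.0234 (SD, n = 4).

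**Figure D5:**
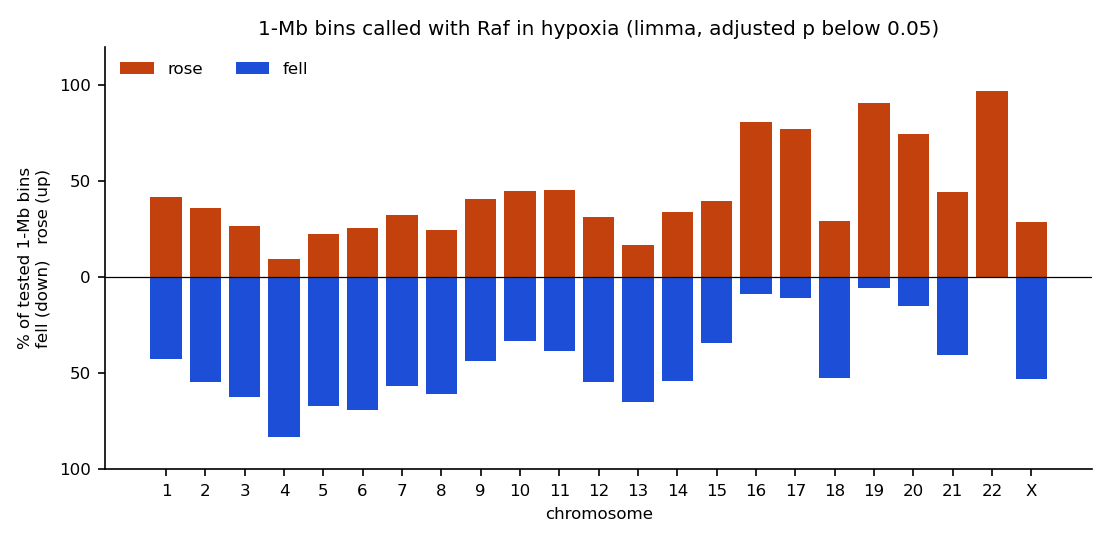
Percent of tested 1-Mb bins on each chromosome that rose (up) or fell (down) with Raf active in hypoxia (limma, adjusted p below 0.05). Chromosome 22, with 97.0% of bins up, and chromosome 4, with 83.4% down, mark the ends.

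Single bins changed severalfold. The bin at 117 to 118 Mb of chromosome 5, with 2 protein-coding genes, went from 45.1 ± 0.840 to 4.19 ± 0.492 scaled peaks (SD, n = 4). Its log2 change was -3.16 ± 0.15 (SE, limma adjusted p 6.29e-12). The bin at 83 to 84 Mb of chromosome 13, whose only gene is SLITRK1, a neuronal membrane protein, went from 51.9 ± 2.38 to 9.31 ± 1.28. The bin at 80 to 81 Mb of chromosome 1, with no gene, went from 25.5 ± 3.11 to 3.96 ± 0.526. Among bins that filled, the one at 48 to 49 Mb of chromosome 22, with TAFA5, went from 2.72 ± 0.640 to 15.8 ± 4.33. The one at 49 to 50 Mb of chromosome 16, with CBLN1 and ZNF423, went from 35.3 ± 3.15 to 97.7 ± 6.03. On chromosome 9 the bin at 135 to 136 Mb went from 58.4 ± 2.67 to 148.5 ± 4.46.

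The Raf change in hypoxia differed from that in normoxia at 2772 loci, 18.2% of those tested (limma interaction, adjusted p below 0.05), being higher at 1382 and lower at 1390. CXCL8 had a log2 change of -0.45 in hypoxia and 0.54 in normoxia, a difference of -0.99 (limma adjusted p 0.000349). FAP was at -0.81 and -0.07 (limma adjusted p 0.00747), LUM at -0.72 and 0.12 (limma adjusted p 0.00671), NECAB1 at -2.97 and -0.94 (limma adjusted p 0.000567), and CDKN2A at 0.23 and 0.92 (limma adjusted p 0.00852). EHMT1 rose more in hypoxia, at 1.02 against 0.40 (limma adjusted p 0.000737), as did RRM2, at 1.22 against 0.61 (limma adjusted p 0.00195). KDM4C fell less, at -0.98 against -1.71 (limma adjusted p 0.000188), and so did SMARCA2, at -1.37 against -2.04 (limma adjusted p 0.00537). Of the regions gained in hypoxia 65.6% had a peak in 4 of 4 Raf-active normoxia libraries, against 51.3% of all regions, and 12.9% in no normoxia library, against 7.77%. By the same rule of 4 of 4 against 0 of 4, 20865 regions were gained in both oxygen states, 50.4% of those gained in hypoxia and 49.4% of those gained in normoxia. The 4 Raf-inactive normoxia libraries had the lowest background of the series, from 3.01 to 3.5, so depth differed between the comparisons too.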

How the data were processed

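ATAC-seq peak lists of 16 libraries were used, 1 per library, with no pooling. Per the submitters' processing notes, the tools were MACS2, Bowtie2, cutadapt, bedtools, deepTools, Picard, FastQC and SAMtools and the build was hg38, while versions and settings are not given in the sources used here. In the lists the authors deposited, each line held a score, a fold over local background, as a ratio at the summit, and a -log10 p and -log10 q of the peak caller. These values depend on depth and only ranked or selected peaks within a list.

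Lines with the same interval counted as 1 peak, on chromosomes 1 to 22 and X. The lists state no read totals, so the background pileup of each library was recovered from fold and -log10 p. Gene bodies came from RefSeq, and a gene start is either gene end where no strand was given. Loci with a mean of at least 3 scaled peaks and 1-Mb bins with at least 10 were compared on a log2 scale with a pseudocount of 1 by limma 3.58.1 in R 4.3.3. All 16 libraries shared 1 fit of 4 group means, and the fit was also tried on simulated Poisson counts. Library values and motif shares were compared by exact permutation. No genome of this build was used, so motifs were counted in promoter windows that held a peak, as the design foresaw for that case.

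Named genes were the 14 largest rises and falls whose states did not overlap, defining genes of the system whatever their result, and up to 4 called members with the largest change from each of 21 gene lists. A few genes that the rule names are not reported here. Further list members are given from the lists' full results. Promoters and regions were ranked by mean percentile of -log10 p. The 6 printed promoters depart from that ranking and were chosen after their values were seen, among windows inside a region of the same class. Members and lists were chosen with earlier results of these data known. Same-numbered libraries did not deviate together (r of 0.0127, -0.0095, -0.0123 and 0.0117 between the states), so the numbers were not taken as pairs. Alternatives covered scaling, peak strength, list length, depth, pseudocount, base pairs, locus width, filter, block, and each replicate left out.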

Additional observations from a re-analysis of the deposited data

Results flagged for a closer look

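At the library values, motif shares and 114 named loci, 268 groups of 4 libraries were searched for 1 library far from the other 3. Such a library was found in 47 groups, all at loci, where chance gives about 1 in 20. In 35 of the 47 the library was 1 peak away from 3 libraries with equal numbers of peaks, before scaling. All values are scaled peaks per locus.

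Among Raf-inactive libraries, replicate 1 stood apart at DRC11L (1.11) and LBP (1.11), both against 0 in the others, DUSP4 (3.33), BUB1 (7.77), KDM5C (4.44), SYNE1 (57.7, against 65.1 to 66.1) and LBR (5.55, against 3.35 to 3.43). Replicate 2 stood apart at MUC6 (1.12, against 0), ZDHHC11 (3.35, against 1.11 to 1.14), BATF (5.59), NFIB (41.4, against 45.5 to 45.9), CTSD (6.71), EMCN (7.83) and SPI1 (4.47). Replicate 3 stood apart at EPYC (7.99), BMP2 (1.14), RRM2 (13.7, against 11.1 to 11.2), RIOX2 (6.85), CDH18 (21.7), MUC1 (3.43), PECAM1 (7.99), ITGAM (2.28) and CKM (2.28). Replicate 4 stood apart at ECEL1 (1.12, against 0), PLSCR5 (7.84), LOC124907920 (5.60), CDKN1A (6.72), CCN2 (5.60) and CTSO (4.48).

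Among Raf-active libraries, replicate 1 stood apart at LOC124907920 (0.932, against 0), DUSP6 (2.79), CXCL8 (3.73) and FBN2 (8.38, against 11.3 to 11.8). Replicate 2 did so at NECAB1 (0.949, against 0) and at CCN2 (3.80). Replicate 3 did so at AGMO and EPYC (0 each), IL6 (4.55), MMP1 (6.37), MAFF (6.37, against 8.38 to 8.54), MMP14 (5.46), BIRC5 (6.37), RRM1 (5.46), ANKRD37 (8.19), KRT18 (6.37) and TIE1 (11.8). Replicate 4 did so at SMARCA2 (10.3, against 8.19 to 8.54).

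At 26 of the 114 named loci the Raf change in hypoxia differed from that in normoxia by the limma interaction test (adjusted p below 0.05). Over all loci tested the share was 18.2%. Most named loci were chosen by the size of their change in hypoxia, which is part of this difference. Their number and signs are therefore no separate result. The difference, hypoxia minus normoxia on the log2 scale, was positive at DRC11L (1.23), MUC6 (1.11), SULT1A2 (1.003), ECEL1 (0.98), IDI2 (0.93), KDM4C (0.74), RYR1 (0.71), NFIA (0.67), SMARCA2 (0.66), MUC1 (0.66), EHMT1 (0.62), RRM2 (0.61), SYNE1 (0.55) and BATF (0.47). It was negative at NECAB1 (-2.03), LOC124907920 (-1.255), CXCL8 (-0.99), BLTP1 (-0.88), LUM (-0.84), RAD21 (-0.82), FAP (-0.74), CNTN1 (-0.70), CDKN2A (-0.69), SESN1 (-0.55), HMGA1 (-0.51) and HMGA2 (-0.39). At KDM4C, NFIA, SMARCA2 and SYNE1 the fall was smaller in hypoxia, at NECAB1, BLTP1, RAD21 and SESN1 it was larger, and the values of CXCL8, LUM, HMGA2 and BATF differed in sign between the oxygen states.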

How the results depend on the processing

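Counts past 1.5 times those reported were these. Loci that rose numbered 8201 of 15276 tested unscaled, 3415 of 10867 at 5-fold enrichment and 3112 of 9134 in gene bodies alone. The reported count was 5127 of 15219, so at the latter 2 settings fewer loci were tested too. Loci that fell numbered 2238 of 15276 unscaled. The oxygen interaction was called at 4859 loci in base pairs. Regions gained numbered 23075 at 5-fold enrichment. Promoters gained numbered 435 by at least 3 of 4 against at most 1 of 4, and promoters lost 182 by that rule and 177 at 5-fold enrichment. The difference in peak number turned to -277.5 at 5-fold enrichment. The share at gene starts differed by -0.114 at matched depth with a -log10 p of at least 5 (chosen after seeing the data) and -0.0173 at equal list length, neither called, and by 0.190 at 5-fold enrichment. Median peak length passed the test at matched depth (19.25 bp), matched depth with that p (46.0), equal list length (53), 5-fold enrichment (66.3) and a -log10 q of at least 5 (13.8).

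With the replicate number as a block, 5095 loci rose and 3980 fell, and the exact sign-flip test of the 7 library values cannot go below 1 in 8. Under it the differences in peaks (28851), Mb covered (18.2), gene start share (-0.867), gene body share (-1.39), share over 50 kb (-1.94) and gene-free share (-0.900) lost their call. Of the named loci, the block ended the call of MMP1 alone (0.20).

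Motif differences, none of which was called in the lists as deposited, changed sign as follows, in percentage points. HIF was at 0.00931 with a -log10 q of at least 5, 0.00719 at equal list length, 0.00769 at matched depth, 0.0125 with the stricter p and 0.00284 in the 100-bp window. E2F was at 0.0168 at 5-fold enrichment, 0.00379 at equal list length and 0.00648 with the stricter p. The p53 motif was at -0.00138, -0.00653 and -0.00564 under these. At 5-fold enrichment CRE was at 0.00235, NF-kB at 0.00113 and CTCF at -0.000529. In the 100-bp window C/EBP was at 0.0149, RUNX at -0.0114 and CTCF at -0.000256. SP was at 0.0239 at equal list length.

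Without 1 replicate at a time, loci that rose numbered 4738 to 4932, loci that fell 3780 to 3880, interactions 2392 to 2676, bins that rose 885 to 898 and fell 1183 to 1203, regions gained 42759 to 45358 and lost 27150 to 28664, and promoters gained 239 to 269 and lost 95 to 111. C/EBP ranged from -0.0101 to 0.00775 and RUNX from -0.000738 to 0.0176, and median peak length from 7.67 to 12.3 bp, called without Raf-inactive replicate 2. The differences in peaks (27112 to 30167), Mb covered (17.1 to 19.1) and the 4 shares kept their calls at the smallest p of 4 against 3.

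At the named loci 23 values changed sign under a setting other than leaving out a library, and none did when 1 library was left out. In base pairs these were DUSP6 (0.30), IL6 (-0.054), CDKN2A (-0.010) and HMGA2 (0.082). At 5-fold enrichment they were IL1A (-0.52), CDKN2A (-0.32), BACH1 (0.41), CCN2 (0.078) and CTSZ (-0.11), and unscaled MMP3 (0.018), CDKN1A (0.094) and HMGA2 (0.20). Under these settings IL1A, CDKN2A and BACH1 at 5-fold enrichment and HMGA2 unscaled were called, and the others were not. With 50 kb they were IL6 (-0.16), MMP1 (-0.14), ANKRD37 (-0.10) and LBR (0.023), and in gene bodies CDKN1A (0.16) and CDKN2A (-0.21). CDKN1A was also at 0.014 with a -log10 q of at least 5, 0.19 at equal list length, 0.047 at matched depth and 0.14 with the stricter p, where CDKN2A was at -0.049. The cause of these changes was not tested. An overlap of 100 bp gave the same regions, since each peak lies whole in its region, and equal list length gives no difference in peak number. Depth was matched at summits, while peak lengths stayed as deposited.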
